A study of Saccharomyces cerevisiae with 4 samples.

Results

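The vacuolar proton ATPase (V-ATPase) of budding yeast was followed through 10 of its subunit genes, chosen by name: VMA1, VMA2, VMA4, VMA5, VMA6, VMA7, VMA8, VMA10, VMA13 and VPH1. All 10 were found among the 7126 features of the table, and all 10 passed the filter on low values. The data are RNA-seq libraries of the Saccharomyces cerevisiae strain named CRY, of mating type MATa, whose genotype label lists ade2, his3, leu2, trp1 and ura3 as deleted. The manganese-adapted group (2 libraries) was grown for 120 h in rich YPD medium with manganese sulfate at 2.5 mM. The control group (2 libraries) was grown for 18 h in the same medium, estimated at 0.0036 mM manganese. Both were taken at the stationary stage, so manganese dose and culture time differ together and their effects cannot be told apart.

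The V-ATPase is a rotary enzyme that spends ATP to pump protons into the vacuole and other acidic compartments. A soluble V1 sector on the cytosolic face hydrolyses ATP, and a membrane V0 sector carries the protons. The proton gradient drives antiporters that load the vacuole with manganese, calcium, zinc and basic amino acids. V1 can detach from V0 reversibly when glucose runs out, a control that works on the proteins.

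Of the 10 genes, 9 fell in manganese-adapted cells and none rose (limma, adjusted p under 0.05 over all tested genes), where 34.9% of the 6296 tested genes fell and 33.6% rose. The remaining gene, VMA2, was also lower in both manganese-adapted libraries but missed the threshold. Both manganese-adapted libraries lay below both controls for all 10, against 43.3% of tested genes. The median log2 fold change of the 10, manganese-adapted over control on the log2(CPM + 1) scale, was -0.82, beside -0.01 over all tested genes. The falls ran over a wide range, down to 0.286 of the control level for VMA7, against 0.749 for VPH1. Changes are relative to the other RNA of a library, and in bulk cultures fewer expressing cells and less RNA per cell cannot be told apart.

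**Figure D1:**
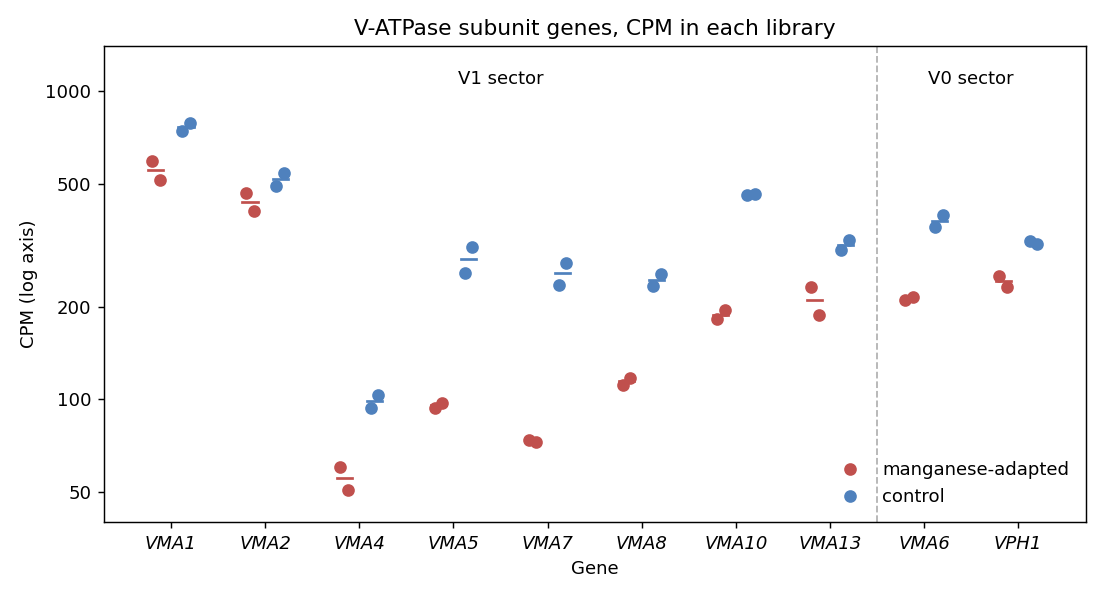
CPM (log axis) of the 10 V-ATPase subunit genes in each library, manganese-adapted (red) left of control (blue), with short lines at the group means; genes left of the dashed line belong to V1, those right of it to V0. In every gene both red points lie below both blue points, narrowly for VMA2 (466 and 410 against 494 and 544 CPM) and widely for VMA7 (74.1 and 72.6 against 236 and 278 CPM).

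The libraries held 12307870 to 14184276 recovered reads, and 3 reads correspond to 0.212 to 0.237 CPM. No label says that the 2 samples of a group were separate cultures, so they may be technical. The p-values therefore measure only the spread between these samples. In limma the spread of each gene is drawn towards that of tested genes at a similar level. Standard errors and p-values thus rest partly on other genes. The a-cell markers MFA1, MFA2, STE2, STE6, BAR1 and AGA2 had 8.48 to 113 CPM. The alpha-cell markers had 1.95 to 103 CPM, with summed levels of 138 and 149 CPM in manganese-adapted and 69.5 and 66.7 CPM in control libraries. Most of that sum was SAG1 (98.2 and 103 CPM in manganese-adapted, 53.7 and 52.5 CPM in control libraries). STE3 rose most, with 26.6 and 30.2 CPM in manganese-adapted libraries, against 6.44 and 5.41 CPM in control libraries (log2 fold change 2.09, limma adjusted p = 6.01e-07). MF(ALPHA)1 rose by 1.74 on the log2 scale (limma adjusted p = 7.35e-06). In all, 3 of the 4 alpha-cell markers rose and 1 fell, where 33.6% of tested genes rose and 34.9% fell. MF(ALPHA)2 went the other way (log2 fold change -0.59, limma adjusted p = 0.02). The a-cell markers summed to 306 and 306 CPM in manganese-adapted and 288 and 315 CPM in control libraries. This near-level sum held changes in both directions. Of the 6 a-cell markers 3 fell (STE2 -0.81, MFA2 -0.59 and MFA1 -0.39) and 2 rose (BAR1 0.92 and STE6 0.45). The 5 auxotrophic marker genes named in the genotype had 37.0 to 830 CPM in every library, so these reads do not show their deletion. Control replicate 1 was the nearer of the controls to the manganese-adapted libraries, lower than control replicate 2 in 9 of the 10 V-ATPase genes, by a median of 0.13 on the log2 scale.

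Upstream DNA of 6 subunit genes is shown because their RNA spans the responses of the complex and because short motifs recur in it. Each stretch is 200 bases of the gene's own strand, from 300 to 101 bases before the start codon, in build R64 from RefSeq. Capitals mark matches to the motifs named below. The VMA2 window runs into the neighbouring gene YBR128C and the VMA8 window into YEL052W. The windows are chrII:492923-493122 (minus), chrXI:284730-284929 (plus), chrV:58078-58277 (plus), chrVII:527430-527629 (minus), chrXV:830675-830874 (minus) and chrXIII:383003-383202 (plus).
VMA2: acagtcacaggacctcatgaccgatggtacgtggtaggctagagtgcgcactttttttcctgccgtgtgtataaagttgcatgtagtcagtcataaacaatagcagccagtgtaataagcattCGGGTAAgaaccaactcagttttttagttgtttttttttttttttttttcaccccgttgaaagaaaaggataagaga
VMA5: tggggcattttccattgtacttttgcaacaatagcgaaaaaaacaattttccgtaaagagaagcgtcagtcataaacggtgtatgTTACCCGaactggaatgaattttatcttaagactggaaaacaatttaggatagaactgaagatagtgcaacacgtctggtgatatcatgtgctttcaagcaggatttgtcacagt
VMA8: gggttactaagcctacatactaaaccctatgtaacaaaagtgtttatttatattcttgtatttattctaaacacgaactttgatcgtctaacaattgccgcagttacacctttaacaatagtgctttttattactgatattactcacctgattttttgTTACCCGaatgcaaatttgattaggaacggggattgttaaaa
VMA7: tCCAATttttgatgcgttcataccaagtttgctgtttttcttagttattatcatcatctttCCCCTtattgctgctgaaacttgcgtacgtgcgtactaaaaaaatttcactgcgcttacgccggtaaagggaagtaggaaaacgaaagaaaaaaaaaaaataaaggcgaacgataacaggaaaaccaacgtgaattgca
VPH1: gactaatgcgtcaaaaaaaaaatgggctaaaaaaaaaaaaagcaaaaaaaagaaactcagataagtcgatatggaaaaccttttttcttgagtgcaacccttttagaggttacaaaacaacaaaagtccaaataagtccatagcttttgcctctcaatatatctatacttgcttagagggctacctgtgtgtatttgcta
STV1: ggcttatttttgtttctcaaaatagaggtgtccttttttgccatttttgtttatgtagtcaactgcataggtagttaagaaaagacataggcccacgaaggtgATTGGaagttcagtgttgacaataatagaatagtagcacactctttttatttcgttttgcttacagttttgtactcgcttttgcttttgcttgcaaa

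The motif TTACCCG, bound by the general regulatory factor Reb1, was found on either strand in the windows of VMA2, VMA5 and VMA8, which is 3 of the 10 genes. It was also in 3 of 6 other subunit genes (VMA3, VMA11 and VMA16), against 7.68% of 6001 protein-coding genes searched in the same window. The stress response motif CCCCT, read by Msn2 and Msn4, was in 4 of the 10 windows (VMA1, VMA4, VMA7 and VMA13) and in none of the 6 other subunit genes, against 16.3% of all. CCAAT, read by the Hap2/3/4/5 complex, was in 1 of the 10 (VMA7) and in 2 of the 6 (VMA9 and STV1), against 30.7% of all. GATGAG, the PAC element, was in 1 of the 10 (VMA10), against 13.8% of all. TGACTCA (Gcn4), CACGTG (Cbf1 and Pho4) and GCCAAG (Rim101) matched none of the 10, against 2.10%, 3.02% and 7.08% of all. GCCAAG was in 2 of the 6 other subunit genes (VMA9 and VMA16). Motifs were searched on both strands, and these letters do not overlap each other in the windows printed. The Reb1 letters were present both in VMA5, which fell strongly, and in VMA2, which was not called, and VPH1 had no match to any of the 7 motifs. A match is a stretch of letters and not a measured binding site.

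The catalytic head of V1 is made of subunit A, the product of VMA1, which hydrolyses ATP, and subunit B, the product of VMA2. VMA1 (YDL185W, chromosome IV, 126787 to 130002, plus strand) had 591 and 514 CPM in manganese-adapted libraries, against 745 and 786 CPM in control libraries. The groups did not overlap, and VMA1 fell with a log2 fold change of -0.47 ± 0.11 (SE, n = 2 per group; limma adjusted p = 0.00276). Its coding region also holds an intein, the homing endonuclease VDE, which is spliced out of the protein, so its reads cover both. VMA2 (YBR127C, chromosome II, 491269 to 492822, minus strand) had 466 and 410 CPM in manganese-adapted libraries, against 494 and 544 CPM in control libraries. All of its manganese-adapted values were lower, but the gap between adapted replicate 1 and control replicate 1 was smaller than the spread within either group. Its log2 fold change was -0.25 ± 0.10 (SE, 95% confidence interval -0.48 to -0.02, limma adjusted p = 0.0561). In the authors' deposited table VMA2 likewise had a false discovery rate of 0.0812 and a log2 fold change of -0.24. VMA2 is the single gene of the 10 that was not called, and it was called lower under 4 alternatives, among them removal of the coding length trend (-0.39, limma adjusted p = 0.0042).

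The central rotor of V1 is built of subunits D and F, the products of VMA8 and VMA7. VMA7 (YGR020C, chromosome VII, 526973 to 527329, minus strand) had 74.1 and 72.6 CPM in manganese-adapted libraries, against 236 and 278 CPM in control libraries. This was the largest fall of the 10, with a log2 fold change of -1.79 ± 0.10 (SE, limma adjusted p = 1.43e-07), and 0.667% of tested genes had a lower one. VMA8 (YEL051W, chromosome V, 58378 to 59148, plus strand) had 111 and 117 CPM in manganese-adapted libraries, against 233 and 255 CPM in control libraries. VMA8 fell by 1.09 on the log2 scale (SE 0.09, limma adjusted p = 2e-06), and its 95% confidence interval of -1.28 to -0.89 lay wholly above that of VMA7, which reached up to -1.58.

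The peripheral stalks, which hold the head still while the rotor turns, are made of subunits E and G from VMA4 and VMA10. VMA10 (YHR039C-A, chromosome VIII, 187173 to 187679, minus strand, 2 coding exons) had 182 and 195 CPM in manganese-adapted libraries, against 459 and 463 CPM in control libraries. It fell by 1.29 on the log2 scale (SE 0.09, limma adjusted p = 6.54e-07). VMA4 (YOR332W, chromosome XV, 943656 to 944357, plus strand) had 60.3 and 50.8 CPM in manganese-adapted libraries, against 93.6 and 104 CPM in control libraries. It had the lowest CPM of the 10 in every library and fell by 0.82 on the log2 scale (SE 0.11, limma adjusted p = 5.13e-05).

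Subunits C and H, the products of VMA5 and VMA13, sit where V1 meets V0 and take part in reversible disassembly. VMA5 (YKL080W, chromosome XI, 285030 to 286208, plus strand) had 93.7 and 97.6 CPM in manganese-adapted libraries, against 256 and 313 CPM in control libraries. It fell by 1.56 on the log2 scale (SE 0.10, limma adjusted p = 6.01e-07), to 0.336 of the control level. Subunit C leaves both sectors when the enzyme comes apart. VMA13 (YPR036W, chromosome XVI, 643836 to 645272, plus strand) had 232 and 188 CPM in manganese-adapted libraries, against 305 and 329 CPM in control libraries. Its fall was 0.60 on the log2 scale (log2 fold change -0.60 ± 0.11 SE, limma adjusted p = 0.000557). The confidence intervals of VMA5 (-1.78 to -1.33) and VMA13 (-0.84 to -0.36) did not overlap, although both genes serve the same interface.

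The other 2 of the 10 genes belong to V0. VMA6 encodes subunit d, which couples the rotor to the proton-carrying ring, and VPH1 encodes the vacuolar isoform of subunit a, the large membrane protein that forms the proton path. VMA6 (YLR447C, chromosome XII, 1026856 to 1027893, minus strand) had 210 and 215 CPM in manganese-adapted libraries, against 363 and 395 CPM in control libraries. It fell by 0.83 on the log2 scale (SE 0.09, limma adjusted p = 1.32e-05). VPH1 (YOR270C, chromosome XV, 828052 to 830574, minus strand) had 251 and 232 CPM in manganese-adapted libraries, against 326 and 319 CPM in control libraries. Its fall, 0.42 on the log2 scale (SE 0.09, limma adjusted p = 0.00147), was the smallest among the 9 genes called. With the coding length trend removed VPH1 stood at -0.69, lower than VMA4 at -0.56.

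**Figure D2:**
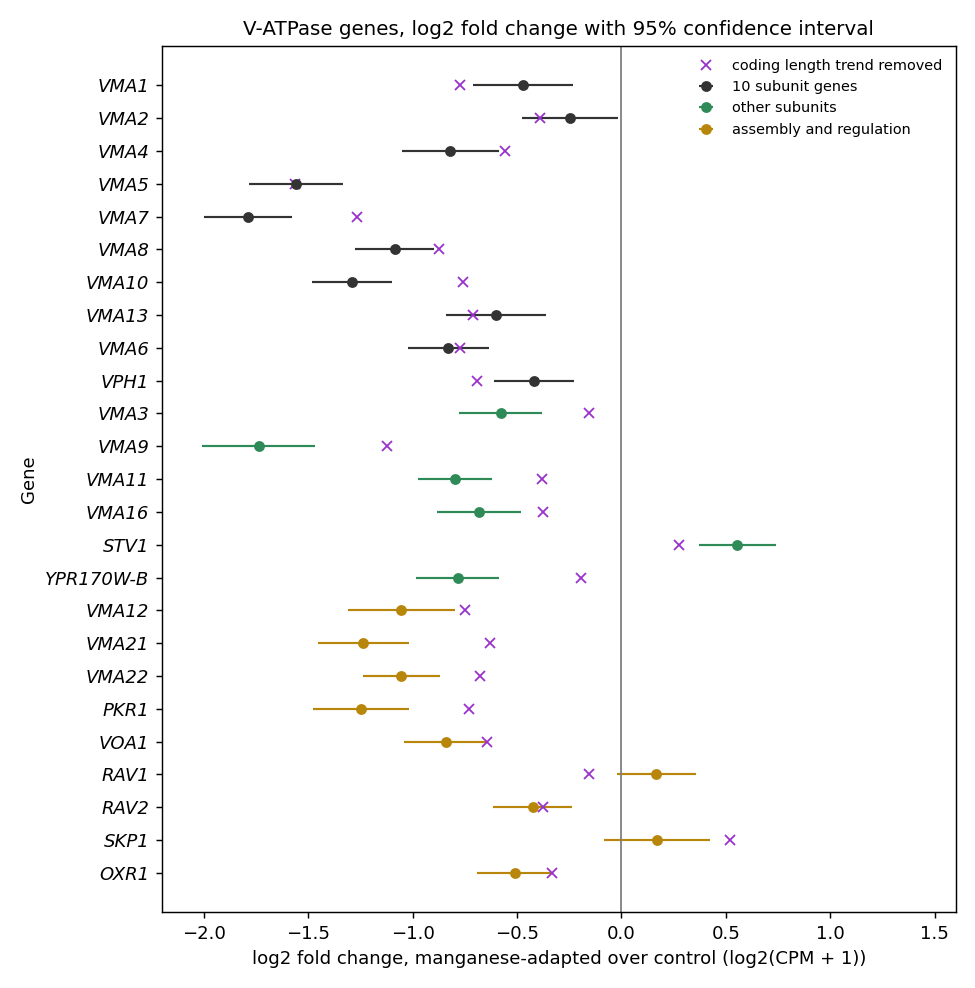
Log2 fold change, manganese-adapted over control on the log2(CPM + 1) scale, for the 10 subunit genes (black), the other subunits (green) and genes of assembly and regulation (gold), with 95% confidence intervals from limma; purple crosses give the value with the coding length trend removed. STV1 alone among the 16 subunit genes lies right of 0, at 0.56, and VMA7 lies farthest left, at -1.79.

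The V0 genes outside the 10 moved the same way, with 1 exception. VMA3, VMA11 and VMA16 encode the proteolipids c, c′ and c″ of the rotating ring. VMA3 had 311 and 301 CPM in manganese-adapted libraries, against 442 and 473 CPM in control libraries. VMA11 had 145 and 142 CPM in manganese-adapted libraries, against 252 and 248 CPM in control libraries. VMA16 had 145 and 134 CPM in manganese-adapted libraries, against 237 and 212 CPM in control libraries. All 3 fell, with log2 fold changes of -0.58, -0.80 and -0.68 for VMA3, VMA11 and VMA16 (limma adjusted p at most 0.000203). VMA9, for the small subunit e, had 10.33 and 10.03 CPM in manganese-adapted libraries, against 33.5 and 39.2 CPM in control libraries. Its log2 fold change of -1.74 was close to that of VMA7. YPR170W-B, for subunit f, had 38.6 and 38.9 CPM in manganese-adapted libraries, against 68.6 and 66.5 CPM in control libraries, and fell (-0.78). With the coding length trend removed, VMA3 (-0.15, adjusted p = 0.146) and YPR170W-B (-0.20, adjusted p = 0.0761) were no longer called, while VMA9 (-1.12), VMA11 (-0.38) and VMA16 (-0.37) were called at a smaller size.

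STV1 (YMR054W, chromosome XIII, 383303 to 385975, plus strand) encodes the other isoform of subunit a, found in V-ATPases of the Golgi and endosomes. It rose, with 242 and 223 CPM in manganese-adapted libraries, against 157 and 158 CPM in control libraries. Its log2 fold change was 0.56 ± 0.08 (SE, limma adjusted p = 0.00017), the single rise among the 16 subunit genes, of which 14 fell. Among all tested genes 34.9% fell and 33.6% rose. With the coding length trend removed 13 of the 16 were called lower, against 33.8% of tested genes. Per kb of coding length, VPH1 stood at 99.5 and 92.0 CPM in manganese-adapted libraries, against 129 and 126 CPM in control libraries. STV1 stood at 90.4 and 83.4 CPM per kb in manganese-adapted libraries, against 58.8 and 59.1 CPM per kb in control libraries. VPH1 RNA was therefore 1.10 times STV1 RNA per kb in both manganese-adapted libraries, against 2.20 and 2.14 times in control libraries. An exact permutation test of 2 libraries against 2 cannot reach 0.05, so this ratio was not tested and is given as a description. The direction of both genes was kept with the coding length trend removed, at -0.69 for VPH1 and 0.27 for STV1 (adjusted p = 0.0116). The 2 genes are of similar coding length (2523 and 2673 bp), and 68.1% of their aligned coding bases were identical. No 50-base stretch of either coding region was found elsewhere in the R64 genome, nor of any of the other 14 subunit genes.

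**Figure D3:**
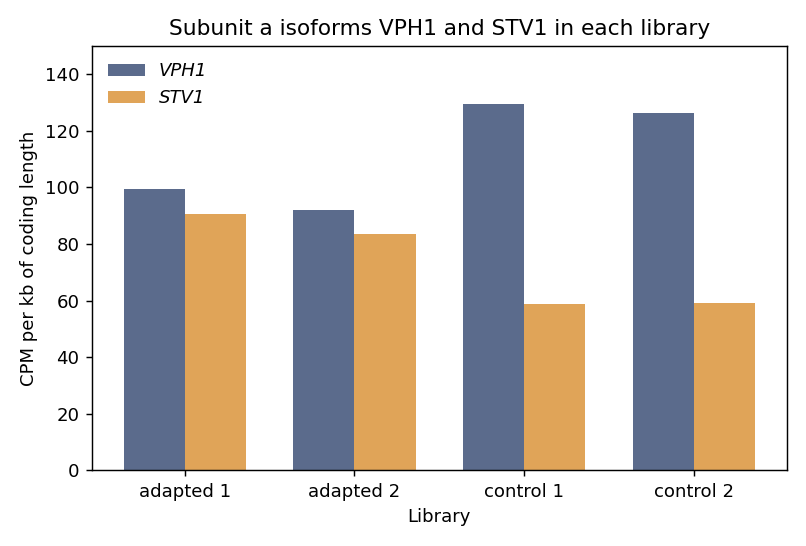
CPM per kb of coding length of VPH1 and STV1, the isoforms of subunit a, in each library, bars starting at 0. The bars are near equal in the manganese-adapted libraries (99.5 and 90.4, 92.0 and 83.4) and apart in the control libraries (129 and 58.8, 126 and 59.1).

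The steps between fold changes followed coding length in part. Among the 10 genes the longer ones fell less, with a Spearman rho of 0.77 between coding length and log2 fold change (n = 10 genes of the same 4 libraries, a description). The same relation was present over 5769 tested genes with a coding length, at a rho of 0.40. Tested genes under 500 bp had a median log2 fold change of -0.59, where VMA7 and VMA10 stood at -1.79 and -1.29. Those of 2500 bp or more had a median of 0.30, where VMA1 and VPH1 stood at -0.47 and -0.42. In every length class the genes of the 10 lay below the median of the class, VMA2 included, with -0.25 against 0.22 for genes of 1500 to 2500 bp. RNA quality was not measured here, and its part in the length trend was not tested.

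With the length trend removed across all genes, all 10 genes were called lower (adjusted p at most 0.0042), against 33.8% of 5769 tested genes. The median of the 10 was then -0.77. The long genes moved away from 0, VMA1 to -0.77 and VMA2 to -0.39. The short ones moved towards it, VMA7 to -1.26 and VMA10 to -0.76. VMA5 stood nearly still at -1.56 and became the lowest of the 10, so the place of VMA7 as the lowest depends on how length is treated.

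**Figure D4:**
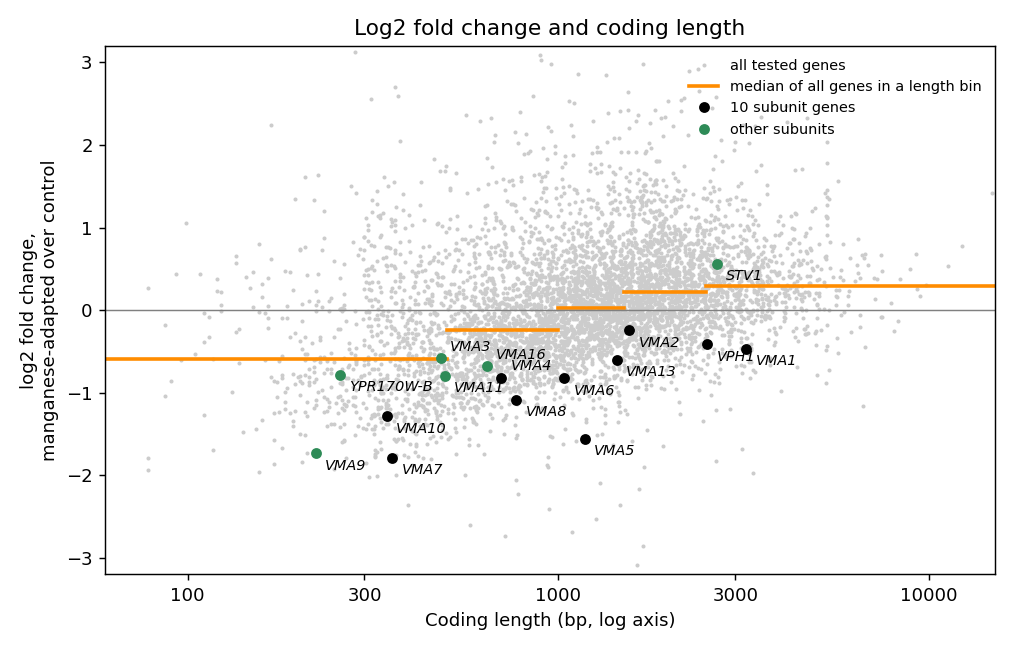
Log2 fold change against coding length (log axis) for all tested genes (grey), the 10 subunit genes (black) and the other subunits (green); orange lines give the median of all genes in each of 5 length classes. The median line climbs from -0.59 to 0.30, the black points lie below it throughout, and STV1 lies above it.

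Levels of different subunits were compared per kb of coding length. In manganese-adapted libraries VMA10 was highest among the 10, at 527 and 564 CPM per kb, followed by VMA2 at 300 and 264 CPM per kb. VMA7 (208 and 203) and VMA6 (202 and 208) came next in CPM per kb and did not differ beyond their spread. VMA5 (79.5 and 82.8) and VMA4 (85.9 and 72.3) were lowest in CPM per kb and overlapped. The order was not the same in control cells. In control libraries VMA10 also led, at 1332 and 1342 CPM per kb, but VMA7 was second at 660 and 778 CPM per kb. VPH1 (129 and 126) and VMA4 (133 and 148) were lowest there in CPM per kb. As a share of the CPM per kb summed over all 16 subunit genes, VMA7 made up 6.03% and 6.11% in manganese-adapted libraries, against 10.7% and 11.96% in control libraries. VMA2 made up 8.72% and 7.92% in manganese-adapted libraries, against 5.16% and 5.39% in control libraries. The RNA of the rotor subunit F thus took a smaller part of the complex's RNA and that of the head subunit B a larger part. These shares were not corrected for the length trend. The median log2 fold change was -0.59 for tested genes under 500 bp, where VMA7 lies, and 0.22 for 1500 to 2500 bp, where VMA2 lies. With the trend removed VMA7 (-1.26) still fell more than VMA2 (-0.39). The part of the trend in the shift of shares was not tested. Coding length stands in for transcript length here, so levels of short genes are the least certain.

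Most genes listed for assembly and regulation of the complex were also lower. Of 9 genes of assembly and regulation 7 fell and none rose, with a median log2 fold change of -0.84, where 34.9% of tested genes fell. VMA12 (listed as VPH2), VMA21 and VMA22, which assemble V0 in the endoplasmic reticulum, fell (-1.05, -1.24 and -1.05). PKR1 and VOA1, which assist them, also fell (-1.25 and -0.84). VMA21 had 27.3 and 30.4 CPM in manganese-adapted libraries, against 68.7 and 69.8 CPM in control libraries. It is encoded on chromosome VII at 698599 to 698832 (plus strand), close to VOA1 at 698989 to 699786 (minus strand), whose 3′ end faces its own. The RAVE complex, which rejoins V1 to V0, did not move together. RAV2 fell (-0.42), whereas RAV1 was at 107 and 99.7 CPM in manganese-adapted libraries, against 93.2 and 90.6 CPM in control libraries (log2 fold change 0.17, limma adjusted p = 0.102). With the length trend removed both had a negative log2 fold change, RAV2 at -0.38 and RAV1 at -0.16 (limma adjusted p = 0.12). SKP1, shared with ubiquitin ligases, was at 519 and 494 CPM in manganese-adapted libraries, against 501 and 403 CPM in control libraries (0.17, limma adjusted p = 0.203). SKP1 was called higher without control replicate 1 (0.33) and with the length trend removed (0.52). OXR1, which promotes disassembly, fell (-0.51). With the length trend removed the 7 genes that fell were still called lower, VMA21 at -0.63, VMA22 at -0.68, PKR1 at -0.73 and OXR1 at -0.33.

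Transporters that use the proton gradient moved in both directions. Of 13 tested proton-coupled transporters of the vacuole and endosomes 6 rose and 1 fell, with a median of 0.13, where 33.6% of tested genes rose and 34.9% fell. With the length trend removed 4 were called higher and 2 lower, with a median of 0.04. Of all tested genes 33.2% were then called higher and 33.8% lower. VNX1, a vacuolar sodium and potassium antiporter, had 284 and 243 CPM in manganese-adapted libraries, against 130 and 125 CPM in control libraries (log2 fold change 1.04, limma adjusted p = 5.03e-06). CCC1, which moves iron and manganese into the vacuole, rose by 0.60 and the amino acid exporter AVT3 by 0.59 on the log2 scale (0.35 for AVT3 with the length trend removed). The 1 gene that fell was GEF1 (-0.37, limma adjusted p = 0.00726), which stood at -0.63 with the length trend removed. GEF1 was named after its values were seen. VBA3, the remaining member of this list, was not tested, with reads in 1 library only. Of 5 genes for phosphatidylinositol 3,5-bisphosphate, a lipid that stabilises V-ATPases holding Vph1, 2 rose and none fell, a share near that of all tested genes (33.6% rose). These were the kinase gene FAB1 (0.55) and its activator VAC7 (0.38). With the length trend removed neither was called (0.17 and 0.06), and the list median was -0.20. VAC14 (-0.35, limma adjusted p = 0.00417) and FIG4 (-0.27, limma adjusted p = 0.0264) were then called lower. These 2 of 5 are a share near that of all tested genes (33.8% lower with the length trend removed). VAC14 and FIG4 were named after their values were seen. The next by size before that correction was ATG18 (-0.07, limma adjusted p = 0.572).

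Among other proton-linked ATPases, the list of nuclear genes for the mitochondrial F-type ATP synthase, a rotary relative of the V-ATPase, fell in 12 of 15 genes and rose in none, with a median of -0.64 (34.9% of tested genes fell and 33.6% rose). ATP19 (-1.51), ATP20 (-1.34) and INH1 (-1.04) were its lowest, and stood at -0.88, -0.81 and -0.45 with the length trend removed. With the length trend removed 8 of these 15 were called lower and 1 higher, with a median of -0.25. Of all tested genes 33.8% were lower and 33.2% higher there. The 10 V-ATPase genes chosen here then had 10 of 10 called lower and a median of -0.77. The 6 other V-ATPase subunit genes had 3 called lower and 1 higher, with a median of -0.28, near that of the ATP synthase list. The subunits encoded in mitochondrial DNA, added after their values were seen, were counted at low levels. ATP6 (Q0085) rose, with 2.95 and 6.71 CPM in manganese-adapted libraries, against 0.425 and 0.300 CPM in control libraries (log2 fold change 2.02, limma adjusted p = 0.000131). This direction was not particular to ATP synthase. Every other tested gene of mitochondrial DNA with a coding length had a positive log2 fold change, from 0.41 (Q0065) to 1.89 (Q0275). OLI1 (Q0130) was at 12.3 and 18.6 CPM in manganese-adapted libraries, against 15.6 and 4.66 CPM in control libraries (0.73, limma adjusted p = 0.111), and ATP8 had 0 reads, which allows up to 0.212 to 0.237 CPM. At the plasma membrane PMA1, the main proton pump, was at 1544 and 1306 CPM in manganese-adapted libraries, against 1499 and 1347 CPM in control libraries. The 2 groups of PMA1 overlapped, with a log2 fold change of -0.0003 ± 0.14 (SE, 95% confidence interval -0.31 to 0.31). Its minor copy PMA2 rose, with 810 and 646 CPM in manganese-adapted libraries, against 31.6 and 22.7 CPM in control libraries (log2 fold change 4.71, limma adjusted p = 4.59e-09). Of 2795 stretches of 50 bases in the PMA2 coding region 38 occur elsewhere in the genome, and reads of those stretches are uncertain.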

How the data were processed

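RNA-seq libraries of 4 samples, 2 manganese-adapted and 2 control, were grouped by the adaptation status in the labels. The submitters' processing notes name edgeR, HTSeq, Bowtie, TopHat2 2.0.13 and cutadapt 1.8.1, and the build sacCer3, the UCSC name of R64. The counting mode, annotation and strand setting were not given in the sources used here. Deposited per-sample values are CPM, scaled by the authors to an effective library size. Of these 28504 values 100% came out as whole reads within 0.01 reads, and CPM recomputed from them with edgeR TMM factors differed by at most 3.9e-06. edgeR on these recovered reads called 4322 genes. Beside them stand the deposited p-value, false discovery rate and log2 fold change of the authors' own comparison. Limits in reads cover counting error only.

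limma 3.58.1 (R 4.3.3, limma-trend, 2 residual degrees of freedom) was run on 6296 features that reached 1 CPM in 2 samples, as log2(CPM + 1), manganese-adapted minus control, with Benjamini-Hochberg adjustment over all of them at 0.05. The pseudocount of 1 understates changes of low genes. edgeR 4.0.16, DESeq2 1.42.0, other scalings, filters and pseudocounts, left-out samples, a replicate block and removal of the coding length trend (loess, span 0.5) were alternatives. Positions and coding lengths were taken from RefSeq's R64 annotation, matched by locus tag for 84.9% of features; it holds no gene overlapping the 16 subunit genes, but features of the table without a match have no position here. Reads of opposite strands cannot be told apart.

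The members and lists were chosen with earlier results of these data known. Named genes were the 10 members, every gene of the lists of other subunits, assembly and regulation, and plasma membrane proton ATPases, and the 3 largest changes of each other list.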

Additional observations from a re-analysis of the deposited data

How the results depend on the processing

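Under 16 alternatives the V-ATPase genes called lower numbered 9 or 10 of 10, none was called higher, and their median log2 fold change ran from -0.89 to -0.76. The 9 genes called lower kept that call and direction under each of them. VMA2 was called lower with upper-quartile scaling (adjusted p = 0.0468), with the crossed replicate block (0.035), without control replicate 1 (0.0142) and with the coding length trend removed (0.0042). Where 1 sample was left out, 1 residual degree of freedom was left, the lone sample of its group was assumed to vary like the other group, and these p-values are not comparable with the rest. Over the samples left out in turn, the V-ATPase genes called lower numbered 9 to 10, their median ran from -0.89 to -0.76, and the genes called among all tested ran from 3316 to 4279. Called values of the 16 subunit genes that moved by over 1.5 times did so with the length trend removed, among them VMA10 to -0.76, VMA1 to -0.77, VPH1 to -0.69, VMA11 to -0.38, VMA16 to -0.37 and STV1 to 0.27. RAV1 then stood at -0.16 (adjusted p = 0.12) and PMA1 at -0.29 (adjusted p = 0.0687).

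The replicate numbers do not pair the samples by any label, and deviations of same-numbered samples correlated at -0.18. With the replicate block 9 V-ATPase genes were called lower and 4196 of all tested genes were called. The crossed pairing, chosen after seeing the data, gave 10 and 4426. Depth was not limiting for the subunit genes: the lowest, VMA9, had 127 to 522 reads. The limits are 2 samples a group, no record of separate cultures and a culture time that differs with manganese.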
